A study of Drosophila melanogaster with 9 samples.

Results

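Peaks of accessible chromatin over the genes of 3 classes of small stable RNA were analysed in S2R+ cells, a hemocyte-like Drosophila melanogaster line derived from embryos. A peak was taken when it overlapped, by at least 1 bp, an annotated gene whose symbol begins with tRNA:, snRNA: or snoRNA:. This rule used position alone and took 184 of 17175 consensus peaks: 137 over tRNA genes, 15 over snRNA genes and 34 over snoRNA genes, with 2 peaks counted in both the tRNA and the snoRNA class. The peaks came from ATAC-Seq, in which a transposase inserts sequencing adapters into open DNA, so that the number of reads in a peak measures its accessibility. Cultures of 1 unmodified line were grown for 36 h at 25 °C and then for 24 h at 14 °C, at 25 °C or at 29 °C, with 3 replicate libraries at each temperature. The suboptimal temperatures were 14 and 29 °C, and 25 °C is the usual culture temperature. The comparisons ask which of these peaks opened or closed with the temperature of growth. The labels and the methods differ on whether more cells were plated for the coldest cultures. If so, cell number at plating and temperature cannot be told apart.

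Transfer RNAs carry amino acids to the ribosome and are made by RNA polymerase III, which is recruited through an A box and a B box that lie inside the tRNA gene itself. Small nuclear RNAs form the spliceosome (U1, U2, U4, U5, U6 and the minor U11 and U12), process histone mRNA (U7) or hold back the elongation factor P-TEFb (7SK). Their genes share an upstream promoter element, the PSEA, bound by the complex SNAPc, and are read by RNA polymerase II, except those of U6, U6atac and 7SK, which also carry a TATA box and are read by RNA polymerase III. Small nucleolar RNAs guide the methylation and pseudouridylation of other RNAs, mostly ribosomal RNA. In Drosophila most of them are cut out of introns of host genes and have no promoter of their own.

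The sequences before the snRNA genes are shown because a PSEA word is what nearly all of these genes, with or without a peak, had in common. Each line gives the last 75 bases before the annotated gene, 5′ to 3′ on the strand of the gene, from the RefSeq genome of build dm6, and capitals mark the match to ATTCNCAA, a shortened PSEA core that was chosen after the sequences had been seen. The first pair of genes lay under the only snRNA peaks that passed the test below, the U1:21D and U1:95Ca genes have one identical sequence but different promoters, the U2 genes are neighbours whose log2 fold changes had opposite signs, and U6:96Ac and 7SKa stand for the genes read by RNA polymerase III.
snRNA:U1:82Eb, chr3R:4948097-4948171, minus strand: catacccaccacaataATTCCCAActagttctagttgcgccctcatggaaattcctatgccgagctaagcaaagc
snRNA:U4:38AB, chr2L:19810659-19810733, plus strand: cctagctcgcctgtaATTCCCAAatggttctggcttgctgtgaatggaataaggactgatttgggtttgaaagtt
snRNA:U1:21D, chr2L:901655-901729, minus strand: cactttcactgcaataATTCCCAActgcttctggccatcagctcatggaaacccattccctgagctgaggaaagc
snRNA:U1:95Ca, chr3R:23859631-23859705, minus strand: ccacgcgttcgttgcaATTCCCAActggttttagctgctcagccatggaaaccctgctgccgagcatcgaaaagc
snRNA:U2:34ABa, chr2L:13212117-13212191, minus strand: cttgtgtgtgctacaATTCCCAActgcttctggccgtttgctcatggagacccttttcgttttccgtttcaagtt
snRNA:U2:34ABb, chr2L:13215764-13215838, plus strand: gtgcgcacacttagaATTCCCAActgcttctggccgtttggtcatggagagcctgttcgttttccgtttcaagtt
snRNA:U6:96Ac, chr3R:24557140-24557214, plus strand: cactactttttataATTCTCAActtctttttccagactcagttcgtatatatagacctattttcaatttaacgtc
snRNA:7SKa, chr3R:7474997-7475071, minus strand: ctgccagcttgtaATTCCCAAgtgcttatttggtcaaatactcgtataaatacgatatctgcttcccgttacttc

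The word was found on the sense strand within 100 bases before 31 of the 32 annotated snRNA genes, among them all 15 under a peak, and 7SKb was the exception. Its first base lay between 65 and 56 bases before the 5′ end, with a median of 59. The longer core AATTCNCAA, which contains the short one, was found before 27 of the 32 genes. Searched on both strands of whole peaks of the commonest width, which 15999 peaks have, the short word was in 11 of the 15 snRNA peaks (73.3%), in 10 of 128 tRNA peaks (7.81%), in 7 of 29 snoRNA peaks (24.1%) and in 8.76% of all peaks of this width. The window of 10 of the 15 snRNA peaks reached over the match before its own gene, so the share in this class follows in large part from the rule that took the peaks. These are matches of letters and do not show that a factor was bound.

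The tRNA genes shown next are those on which the tRNA results turn: the tallest peak, the genes with the smallest p in each direction, and a pair of identical Cys-GCA genes. The whole gene is given 5′ to 3′ from the same genome. Capitals mark a match to TNGNNNAG near the start (A box) and to GTTCNANNC near the end (B box), both widened from narrower cores after the sequences had been seen.
tRNA:Leu-CAA-2-3, chr3R:23601333-23601455, minus strand: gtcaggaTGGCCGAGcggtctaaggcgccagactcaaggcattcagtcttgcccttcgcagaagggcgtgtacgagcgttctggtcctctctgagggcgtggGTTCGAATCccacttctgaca
tRNA:Asp-GTC-1-2, chr2L:8481777-8481848, plus strand: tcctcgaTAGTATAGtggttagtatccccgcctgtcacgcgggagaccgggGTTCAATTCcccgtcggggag
tRNA:Ser-AGA-2-5, chr3L:5342084-5342165, plus strand: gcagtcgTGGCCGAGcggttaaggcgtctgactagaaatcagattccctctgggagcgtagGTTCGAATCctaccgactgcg
tRNA:Glu-CTC-3-1, chr3L:1379934-1380005, plus strand: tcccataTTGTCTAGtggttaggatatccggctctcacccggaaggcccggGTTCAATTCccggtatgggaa
tRNA:Pro-CGG-3-1, chrX:3827622-3827693, plus strand: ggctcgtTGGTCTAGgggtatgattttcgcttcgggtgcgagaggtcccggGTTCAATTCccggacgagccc
tRNA:Cys-GCA-1-2, chr3L:3095991-3096062, plus strand: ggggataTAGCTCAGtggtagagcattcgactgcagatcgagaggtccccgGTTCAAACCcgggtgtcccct

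The wider B box was present in 162 of the 175 tRNA genes with a peak and in 112 of the 120 without one, so its presence did not separate them. The narrower core GTTCGANNC was present in 96 of the 175 genes with a peak and 66 of the 120 without. In whole peaks, on both strands, the wider B box was found in 122 of 128 tRNA peaks of the commonest width (95.3%), against 15.9% of all peaks of this width. The narrower one was in 73 of 128 (57.0%), against 4.68%. These peaks were taken for overlapping tRNA genes, of which 274 of 295 (92.9%) hold the wider word, so the contrast follows from the rule. For the A box words the contrast was smaller. TNGCNNAGT was in 64 of 128 tRNA peaks (50.0%), against 22.1% of all peaks, and the wider TNGNNNAG occurred in 95.6% of all peaks. The TATA box word TATAAA was found in 83 of 128 tRNA peaks (64.8%), 9 of 15 snRNA peaks (60.0%) and 16 of 29 snoRNA peaks (55.2%), against 40.8% of all peaks. On the sense strand it lay within 100 bases before only 1 of the 15 snRNA genes with a peak. It lay inside 0 of the 295 tRNA genes. These shares make no allowance for base composition. The DNA replication-related element TATCGATA, common at promoters of housekeeping genes, was in 3 of 128 tRNA peaks (2.34%) and in none of the 15 snRNA or 29 snoRNA peaks, against 4.83% of all peaks. All peaks include those of the 3 classes.

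A peak was found over 175 of 295 annotated tRNA genes (59.3%), over 15 of 32 snRNA genes (46.9%) and over 38 of 257 snoRNA genes (14.8%). Reads that mapped to more than 1 place had been removed by the authors, so genes inside long identical stretches can lose their reads. The presence of an exact copy alone did not separate the tRNA genes with and without a peak. Of 238 genes with an identical copy elsewhere, 143 lay under a peak (60.1%), against 32 of 57 genes of unique sequence (56.1%). Only genes equal in every base were counted as copies. Genes of unique sequence can therefore have near-identical copies, and whether these cost them reads was not tested. In total the 295 tRNA genes comprised 100 distinct sequences, with up to 13 copies of 1 sequence. Of the 43 sequences with copies, 5 had a peak over every copy, 33 over some and 5 over none.

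Among the amino acids, the genes for histidine (5 of 6), proline (13 of 17) and isoleucine (9 of 12) were most often under a peak, and those for tyrosine (3 of 10), arginine (11 of 26) and alanine (8 of 17) least often. The only selenocysteine tRNA gene had a peak. The counts behind most amino acids are small, and these shares were not tested.

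**Figure D1:**
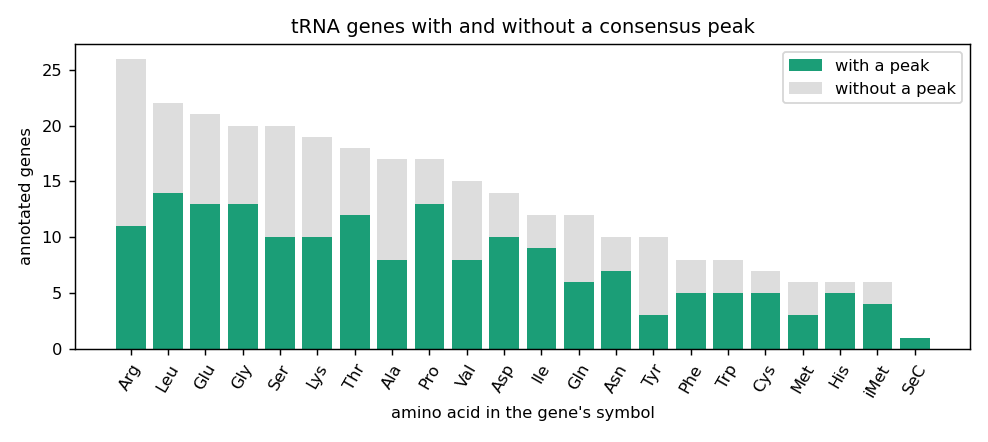
Annotated tRNA genes for each amino acid named in the gene's symbol (bars; number of genes on the vertical axis), divided into genes with a consensus peak (green) and without one (grey); iMet is the initiator methionine tRNA and SeC the selenocysteine tRNA. Arginine had the most genes, 26, of which 11 had a peak, and tyrosine had a peak over 3 of 10.

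Of the snRNA families, U1 had a peak over 3 of 5 genes, U2 over 2 of 6, U4 over 2 of 3, U5 over 2 of 7 and U6 over 1 of 3. U7, U11, U12 and LU, each with 1 gene, and 7SKa had a peak, while 7SKb, U4atac and U6atac had none. The 3 U6 genes are identical in sequence, as are U1:21D, U1:95Ca and U1:95Cb, and U2:34ABb and U2:34ABc, so reads that fall wholly within these genes could not be counted for any of them, and their peaks rest on reads that reach into the flanks.

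The peaks of the 3 classes sat differently on their genes. The centre of a tRNA peak lay at the 5′ end of the gene, with a median offset of -4 bp and quartiles of -54.5 and 39.5 bp over 175 genes. The centres of snRNA peaks lay downstream, with a median of 181 bp (quartiles 68 and 249 bp, n = 15). This was beyond the median length of the snRNA genes with a peak, 164 bp, and 6 of the 15 centres were past the 3′ end of the gene. snoRNA peaks were spread more widely, from -231 to 679.5 bp, with a median of 29.5 bp. Any overlap with the gene sufficed for a peak to be taken, so over a longer gene its centre could lie further downstream. The tRNA genes with a peak had a median length of 73 bp. How much of the differences between classes follows from gene length was not tested.

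**Figure D2:**
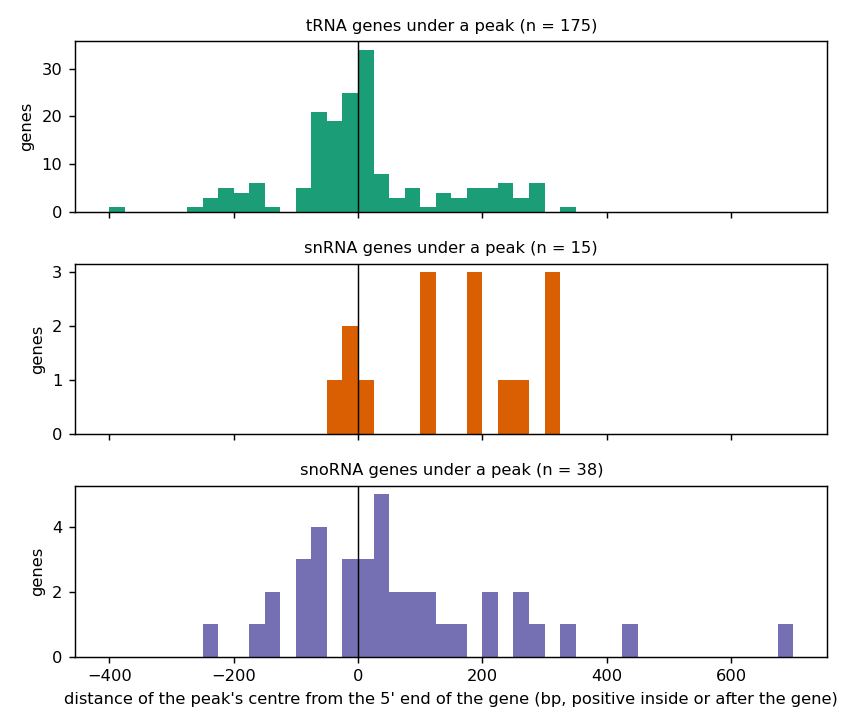
Distance of the peak's centre from the 5′ end of the gene in bp (horizontal axis, positive downstream) against the number of genes (vertical axis, a scale for each panel) for tRNA (n = 175), snRNA (n = 15) and snoRNA genes (n = 38). tRNA peaks cluster at the 5′ end (median -4 bp), whereas snRNA peaks lie mostly downstream (median 181 bp).

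Start sites of other genes were near some of the peaks. A start site of a protein-coding or long noncoding gene lay within 500 bp of 29 of 137 tRNA peaks (21.2%), 3 of 15 snRNA peaks and 16 of 34 snoRNA peaks (47.1%), against 44.9% of all peaks. The 3 snRNA peaks near another start were those of U2:34ABa (at the start of CG15482), U11 (82 bp from that of Fie) and U2:34ABb (470 bp from that of kek4). Of the snoRNA peaks, 22 lay within a host gene. Hosts that code for ribosomal proteins included RpL30, RpS12, RpL15, RpL3, RpL17 and RpS6, and Uhg2, Uhg4 and Uhg5 are noncoding snoRNA hosts.

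By the median of each class, the peaks were taller than all peaks. Height is given as the count scaled to library size (CPM, counts in peaks scaled to a common total with TMM factors) and averaged over the 9 libraries. The median was 53.9 CPM for tRNA peaks, 80.6 CPM for snRNA peaks and 54.7 CPM for snoRNA peaks, against 39.0 CPM for all peaks. The median of the other peaks near a start site of a protein-coding or long noncoding gene was 45.1 CPM. Among the tallest 10% of all peaks were 26 of 137 tRNA, 6 of 15 snRNA and 9 of 34 snoRNA peaks. Among the lowest 10% were 15 tRNA, 0 snRNA and 1 snoRNA peaks. The 35 peaks that covered 2 or 3 tRNA genes had a median of 83.0 CPM (quartiles 58.9 and 141.5 CPM), above the 44.1 CPM (25.9 and 78.6 CPM) of the 102 that covered 1. snoRNA peaks near another start site had a median of 35.6 CPM (n = 16), below the 82.4 CPM of the 18 away from one. The DNA of the tRNA peaks was poor in G and C, with a median of 38.3%, against 43.7% for all peaks, 41.3% for snRNA peaks and 41.1% for snoRNA peaks.

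The libraries held between 3290670 and 10805366 counts in peaks. At 14 °C replicate 2 was the deepest, with 10459192 counts against 3606693 and 6596744 in replicates 1 and 3. They stood apart in how strongly tall peaks rose above low ones: the SD of log2 CPM over peaks was 0.74 and 0.77 in replicates 1 and 3 at 14 °C and 1.06 in replicate 2, against 0.89 to 1.14 at 25 °C and 1.01 to 1.31 at 29 °C. Replicate 2 at 14 °C therefore resembled the warmer libraries in this respect, and values without it are given beside the class results and the peaks in which it stood apart. Its removal moved the whole table: 8542 of all peaks (49.7%) then passed the test between 14 and 29 °C that is described below. Promoter peaks were present at 5 of 7 markers of hemocytes or of the line (srp, Pxn, eater, crq and fz, but neither Hml nor NimC1), against 2 of 6 genes of other cell types (elav and repo). The elav peak was the tallest of these, with 163.5 CPM on average, against 31.0 to 128.4 CPM for the peaks at the 5 markers.

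By class, and relative to the median of all peaks, the libraries at 14 °C overlapped those at 29 °C for tRNA and snRNA peaks and lay just below them for snoRNA peaks. The median of all peaks itself averaged 41.1 CPM at 14 °C and 37.2 CPM at 29 °C. The log2 fold changes given later compare each peak with itself, so their class medians can differ in sign from this measure. Median log2 CPM of the tRNA peaks relative to that of all peaks was 0.03, 0.59 and 0.14 in replicates 1, 2 and 3 at 14 °C, 0.29, 0.63 and 0.61 at 25 °C, and 0.47, 0.80 and 0.42 at 29 °C. The lowest value belonged to 14 °C, but its replicate 2 lay among the warmer libraries. For snRNA peaks the same measure was 0.63, 1.92 and 0.88 at 14 °C, 0.74, 0.94 and 1.03 at 25 °C, and 0.91, 1.15 and 0.84 at 29 °C. One library, replicate 2 at 14 °C, exceeded all others by far. For snoRNA peaks it was 0.16, 0.46 and 0.35 at 14 °C, 0.47, 0.53 and 0.78 at 25 °C, and 0.50, 0.74 and 0.46 at 29 °C. All 3 libraries at 14 °C were below the other 6, but the gap between the nearest ones, replicate 2 at 14 °C and replicate 3 at 29 °C, was smaller than the rounding of these values.

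**Figure D3:**
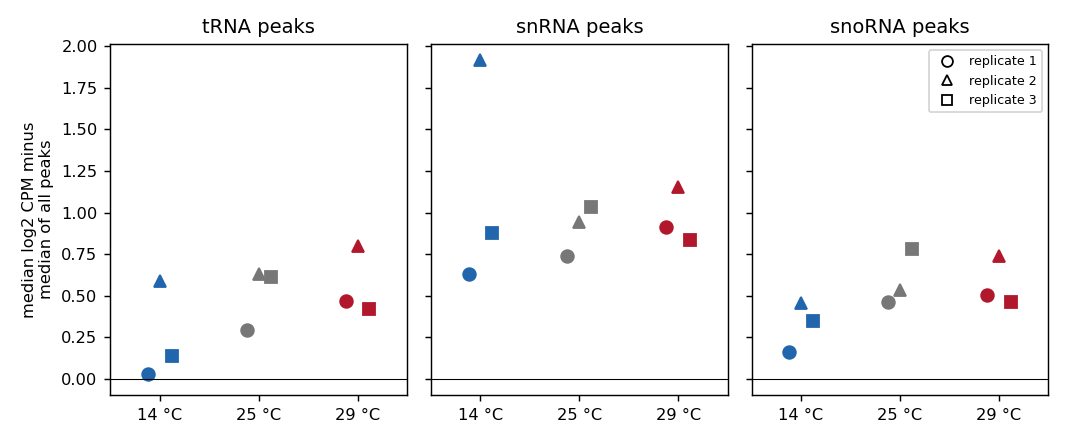
Median log2 CPM of the peaks of each class minus the median of all peaks (vertical axis, log2 units) in each of the 9 libraries, by temperature (horizontal axis; symbols give the replicate number). At 14 °C the snRNA peaks span 0.63 to 1.92, a wider range than at 25 or 29 °C, with replicate 2 highest.

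The share of all counts that fell in snRNA peaks was 0.141%, 0.272% and 0.167% in replicates 1, 2 and 3 at 14 °C, 0.180%, 0.188% and 0.202% at 25 °C, and 0.161%, 0.197% and 0.146% at 29 °C. Replicate 2 at 14 °C was the highest of the 9 libraries in 8 of the 15 snRNA peaks (53.3%), 8 of the 34 snoRNA peaks (23.5%) and 23 of the 137 tRNA peaks (16.8%), against 8.77% of all peaks. tRNA peaks took between 0.789% and 1.14% of the counts in the 9 libraries, and snoRNA peaks between 0.248% and 0.348%.

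Between 14 and 29 °C, 2 snRNA peaks were more accessible at 14 °C and no tRNA or snoRNA peak passed the test. Counts were compared by the quasi-likelihood method of edgeR, and a peak was called when its p, after Benjamini-Hochberg adjustment over all 17175 peaks, was under 0.05. Of all peaks 1.22% passed, and 0.559% passed with a higher value at 14 °C. The 2 called snRNA peaks are 13.3% of a class of 15. At an unadjusted p under 0.05 there were 7 snRNA peaks (6 higher and 1 lower at 14 °C), 31 tRNA peaks (14 higher and 17 lower) and 4 snoRNA peaks (3 higher and 1 lower), against 33.3% of all peaks. DESeq2, another count test, called 6 snRNA peaks (40.0%), 9 tRNA peaks (6.57%) and 1 snoRNA peak (2.94%), against 2159 of all peaks (12.6%).

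The snRNA:U1:82Eb peak (chr3R:4947824-4948324) covers one of the genes for U1, the RNA that recognises the 5′ splice site. It had 52.0, 65.9 and 48.1 CPM at 14 °C, 35.5, 39.6 and 38.5 CPM at 25 °C, and 27.7, 21.9 and 24.9 CPM at 29 °C. The 3 groups did not overlap and followed the order of temperature. The log2 fold change of 14 over 29 °C was 1.16 (SE 0.18, adjusted p in edgeR = 0.024). The nearest start site of another protein-coding or long noncoding gene lay 1746 bp away. No other annotated snRNA gene had exactly the sequence of U1:82Eb. Near-identical U1 genes were not searched for, so whether the peak lost reads to them was not tested. Without replicate 2 at 14 °C, where 49.7% of all peaks passed, the log2 fold change was 1.01 (adjusted p in edgeR = 0.0089). Leaving out any other of the 6 libraries took the adjusted p to between 0.056 and 0.14, with log2 fold changes of 1.07 to 1.25. In those fits only 0 to 16 of all 17175 peaks passed (at most 0.0932%), so the loss of calls was not particular to this peak.

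The snRNA:U4:38AB peak (chr2L:19810602-19811102) covers a gene for U4, the partner of U6 in the spliceosome. It had 43.3, 36.7 and 34.2 CPM at 14 °C, 27.1, 23.7 and 18.0 CPM at 25 °C, and 21.2, 14.9 and 15.7 CPM at 29 °C. The libraries at 14 °C were above all 6 others, while those at 25 and 29 °C overlapped. The log2 fold change of 14 over 29 °C was 1.13 (SE 0.24, adjusted p in edgeR = 0.049). Without replicate 2 at 14 °C it was 1.16 (adjusted p in edgeR = 0.011). Without any other of the 6 libraries the adjusted p was between 0.11 and 0.21, in fits that only 0 to 16 of all peaks passed. The 2 called peaks were among the lowest of the snRNA peaks, with 39.3 and 26.1 CPM on average, and U4:38AB was the lowest of all. When replicates were treated as blocks both stayed past the threshold (adjusted p = 0.031 for U1:82Eb and 0.035 for U4:38AB). With offsets that remove the trend against peak height in each library, the log2 fold change of U4:38AB was 0.70 and its call was lost (adjusted p = 0.076, and 0.056 with the block added), while U1:82Eb stood at 1.05 (adjusted p = 0.012). The call of U4:38AB was also lost with RLE scaling (adjusted p in edgeR = 0.051), where 172 of all peaks passed. Both calls were lost in a fit of only the 6 libraries compared (adjusted p in edgeR = 0.089 for U1:82Eb and 0.10 for U4:38AB), where 6 of all peaks passed.

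**Figure D4:**
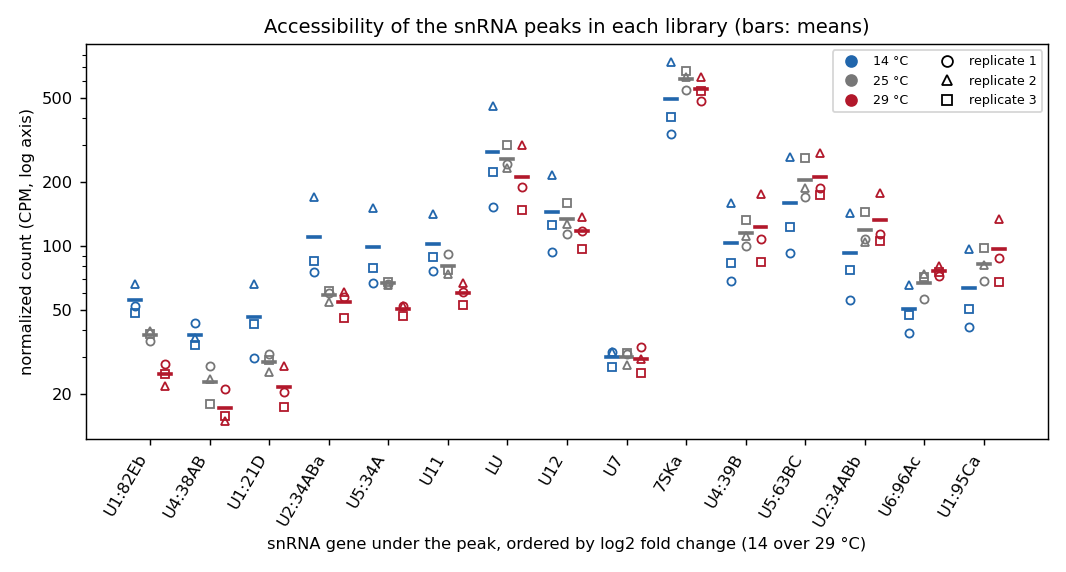
Normalized count (CPM, log axis) of the 15 snRNA peaks in each of the 9 libraries; colours give the temperature, symbols the replicate number and bars the group means, and peaks are ordered by the log2 fold change of 14 over 29 °C. U1:82Eb (52.0, 65.9 and 48.1 CPM at 14 °C, against 27.7, 21.9 and 24.9 CPM at 29 °C) is separated by temperature, U4:38AB has its libraries at 14 °C above all others, and in many other peaks replicate 2 at 14 °C (blue triangle) stands above replicates 1 and 3.

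A further 4 snRNA peaks had every library at 14 °C above every library at 29 °C but did not pass. With the 2 called peaks, 6 of the 15 snRNA peaks (40.0%) were separated in this direction, against 12.8% of all peaks. In the U1:21D peak (chr2L:901215-901715) the values were 29.7, 66.2 and 42.6 CPM at 14 °C and 20.4, 27.1 and 17.3 CPM at 29 °C (log2 fold change 1.09, SE 0.29, adjusted p in edgeR = 0.086). In that of U2:34ABa (chr2L:13211561-13212061), a gene for the RNA that pairs with the branch point, they were 75.5, 170 and 85.4 CPM at 14 °C and 57.1, 60.4 and 45.9 CPM at 29 °C (log2 fold change 1.01, SE 0.28, adjusted p = 0.095). Both have replicate 2 at 14 °C far above the other libraries. In the U5:34A peak (chr2L:13244787-13245287), over a gene for the RNA that aligns the exons, they were 66.6, 152 and 78.7 CPM at 14 °C and 52.3, 52.2 and 46.6 CPM at 29 °C (0.98, SE 0.27, adjusted p = 0.094). In the U11 peak (chr3L:3892813-3893313), over the gene for the RNA that reads the 5′ splice site of minor introns, they were 76.2, 141 and 88.9 CPM at 14 °C and 60.9, 66.7 and 52.5 CPM at 29 °C (0.76, SE 0.24, adjusted p = 0.11). Without replicate 2 at 14 °C the log2 fold changes of these 4 peaks were 0.73, 0.55, 0.53 and 0.45, with adjusted p of 0.037, 0.023, 0.021 and 0.053, in a fit that 49.7% of all peaks passed. In that fit 10 of the 15 snRNA peaks passed, 5 higher and 5 lower at 14 °C.

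In the opposite direction, the U6:96Ac peak (chr3R:24556933-24557433), over a gene for the catalytic RNA of the spliceosome, had 38.9, 65.1 and 47.4 CPM at 14 °C and 71.8, 80.2 and 75.5 CPM at 29 °C. All libraries at 14 °C were below those at 29 °C, and the log2 fold change stood at -0.58 (SE 0.21, adjusted p in edgeR = 0.12). It was the only snRNA peak separated in this direction (6.67%), against 15.1% of all peaks. The libraries overlapped in the remaining 8 snRNA peaks. Among these, log2 fold changes were -0.61 for U1:95Ca (SE 0.34), -0.52 for U2:34ABb (SE 0.34), -0.40 for U5:63BC (SE 0.38), -0.24 for U4:39B (SE 0.35) and -0.15 for 7SKa (SE 0.31). They were 0.03 for U7 (SE 0.19), 0.31 for U12 (SE 0.31) and 0.39 for LU (SE 0.40), and the adjusted p of these 8 peaks was between 0.21 and 0.92. The 7SKa peak was the tallest of the class, with 336, 738 and 407 CPM at 14 °C and 480, 628 and 538 CPM at 29 °C.

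Genes of one RNA had log2 fold changes of both signs. The identical U1:21D and U1:95Ca genes had log2 fold changes of 1.09 and -0.61, the U2 neighbours 34ABa and 34ABb 1.01 and -0.52, U4:38AB and U4:39B 1.13 and -0.24, and U5:34A and U5:63BC 0.98 and -0.40. In each pair the value below 0 was that of the taller peak. Mean heights were 80.6 CPM for U1:95Ca against 32.1 CPM for U1:21D, 114.4 CPM for U2:34ABb against 74.4 CPM for U2:34ABa, 113.7 CPM for U4:39B against 26.1 CPM for U4:38AB, and 192.2 CPM for U5:63BC against 72.0 CPM for U5:34A. The difference within a pair was not tested. Over the class, 9 log2 fold changes were above 0 and 6 below, with a median of 0.31, and the median of all peaks was 0.02. Without replicate 2 at 14 °C the median of the class was -0.10. It was 0.70 with offsets against peak height, 0.13 with offsets against GC content, and 0.17 among the 12 peaks away from another start site or among the 14 that overlapped their gene by at least 50 bp or the whole gene.

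Most tRNA peaks had log2 fold changes below 0, and none was called. Their median log2 fold change of 14 over 29 °C was -0.22, with 94 below 0 and 43 above. Over all peaks the median was 0.02, with 8451 below 0 and 8724 above. It was -0.17 over the 7666 other peaks near a start site and 0.32 over the 9325 other peaks away from one. The 108 tRNA peaks away from another start site had a median of -0.21 and the 29 near one a median of -0.30. Without replicate 2 at 14 °C the median of the class was -0.37 and 56 tRNA peaks passed (40.9%), 9 higher and 47 lower at 14 °C, against 49.7% of all peaks. Without any other of the 6 libraries no tRNA peak passed, and only 0 to 16 of all peaks did. Direction went with height in this class and in the whole table. Of the 90 tRNA peaks above the median height of all peaks 83 were below 0 (median -0.30), against 6167 of 8587 among all peaks (median -0.27). Of the 47 at or below it 36 were above 0 (median 0.32), against 6304 of 8588 among all peaks (median 0.37). Above the median height, 7.78% of the tRNA peaks and 28.2% of all peaks were above 0, so there the tilt was stronger than in all peaks. The other peaks near a start site were not split by height. Of these, 5034 of 7666 were below 0, so a tilt of this direction was not particular to the tRNA class. With offsets that remove the trend against height in each library, the median of the tRNA peaks was -0.06. Libraries at 14 °C were all above those at 29 °C in 16 tRNA peaks (11.7%) and all below in 22 (16.1%), against 12.8% and 15.1% of all peaks, so both shares were near the background. Among snRNA peaks the counts were 6 (40.0%) and 1 (6.67%), and among snoRNA peaks 3 (8.82%) and 1 (2.94%).

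**Figure D5:**
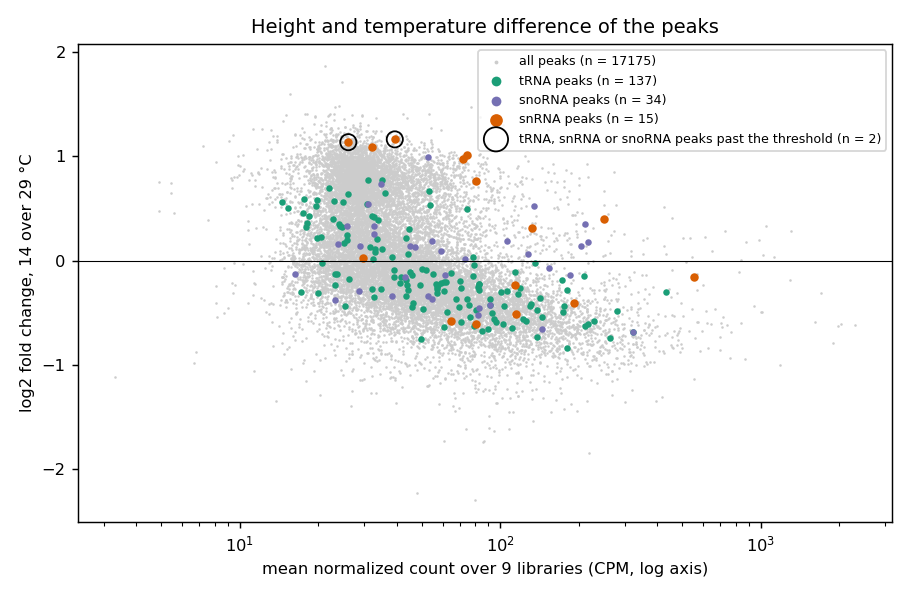
Log2 fold change of 14 over 29 °C (vertical axis) against the mean normalized count over the 9 libraries (CPM, log axis) for all 17175 peaks (grey) and for the peaks of the 3 classes (colours); circles mark the 2 called snRNA peaks. Most tall tRNA peaks lie below 0 (83 of 90, against 6167 of 8587 tall peaks in the whole table) within the cloud of all peaks. The called snRNA peaks, at 1.16 and 1.13, have mean heights of 39.3 and 26.1 CPM, near and below the median of all peaks (39.0 CPM).

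The smallest p among tRNA peaks belonged to the peak over Asp-GTC-1-2 and Asp-GTC-1-3 (chr2L:8481814-8482314), a pair of identical aspartate tRNA genes. It had 31.4, 44.4 and 37.4 CPM at 14 °C, 38.9, 52.0 and 51.1 CPM at 25 °C, and 66.2, 60.6 and 64.8 CPM at 29 °C. All libraries at 29 °C exceeded the 6 others. The log2 fold change of 14 over 29 °C was -0.75 (SE 0.18, adjusted p in edgeR = 0.064), and the adjusted p was 0.049 when replicates were treated as blocks. A start site of CG43796 lies 60 bp from this peak. The Asp-GTC-1-6 peak (chr2L:8619718-8620218), over a further copy of the gene, had 78.5, 138 and 93.2 CPM at 14 °C and 163, 206 and 147 CPM at 29 °C (-0.74, SE 0.26, adjusted p = 0.12). No library at 14 °C reached those at 29 °C in it. The Thr-AGT-1-7 peak (chr3R:19802430-19802930), over a threonine tRNA gene, had 53.7, 73.3 and 57.8 CPM at 14 °C and 99.3, 99.0 and 88.4 CPM at 29 °C (-0.63, SE 0.19, adjusted p = 0.10).

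Of the tRNA peaks higher at 14 °C, those over Ser-AGA-2-5, Glu-CTC-3-1 and Pro-CGG-3-1 had the 3 smallest p in edgeR, and none passed the threshold. In each, every library at 14 °C lay above every library at 29 °C. This held for 16 tRNA peaks in total (11.7%), against 12.8% of all peaks. The reverse held for 22 tRNA peaks (16.1%), against 15.1% of all peaks. The Ser-AGA-2-5 peak (chr3L:5341817-5342317) had 42.6, 47.6 and 45.3 CPM at 14 °C, 35.8, 33.4 and 32.8 CPM at 25 °C, and 31.6, 30.6 and 23.9 CPM at 29 °C. Its log2 fold change of 14 over 29 °C was 0.65 (SE 0.17, adjusted p in edgeR = 0.082). The Glu-CTC-3-1 peak (chr3L:1379667-1380167) had 36.9, 45.0 and 39.8 CPM at 14 °C and 20.1, 25.5 and 25.8 CPM at 29 °C (0.77, SE 0.20, adjusted p = 0.083). Values of the Pro-CGG-3-1 peak (chrX:3827434-3827934) were 63.4, 65.2 and 59.5 CPM at 14 °C and 44.7, 41.7 and 43.4 CPM at 29 °C (0.54, SE 0.15, adjusted p = 0.089). In these 3 peaks the replicates lay close together, and replicate 2 at 14 °C did not stand apart from them as it did in the tall peaks.

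The largest difference in either direction, chosen after the values were seen, was in the peaks of iMet-CAT-1-5 (-0.84), an initiator methionine tRNA gene, and SeC-TCA-1-1 (0.78), the selenocysteine tRNA gene, with adjusted p in edgeR of 0.12 and 0.091.

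The tallest tRNA peaks overlapped between temperatures. The tallest, over Leu-CAA-2-3 (chr3R:23601200-23601700), a leucine tRNA gene with an intron, had 301, 496 and 338 CPM at 14 °C, 407, 463 and 489 CPM at 25 °C, and 434, 506 and 462 CPM at 29 °C. Its log2 fold change of 14 over 29 °C was -0.30 (SE 0.26, adjusted p in edgeR = 0.38). At 323.3 CPM on average, the peak over the snoRNA gene hts-a with tRNA genes Ser-CGA-1-4 and Val-AAC-2-1 followed. It had 169, 333 and 206 CPM at 14 °C and 327, 452 and 362 CPM at 29 °C (-0.69, SE 0.30, adjusted p = 0.15). The next were over Ile-AAT-1-3, Leu-CAA-2-1 and Ile-AAT-1-4 together, with 280.5 CPM (-0.49, SE 0.30, adjusted p = 0.25), over Ala-TGC-2-1, with 264.6 CPM (-0.74, SE 0.34, adjusted p = 0.15), and over the identical Cys-GCA-1-2 and Cys-GCA-1-3, with 228.2 CPM (-0.58, SE 0.34, adjusted p = 0.23). A peak over 3 genes of the tRNAs for alanine and proline (Ala-AGC-2-2, Pro-TGG-1-2 and Ala-AGC-2-3) had 102.0 CPM (-0.61, SE 0.30, adjusted p = 0.17). In each of these 6 peaks replicate 2 was the highest and replicate 1 the lowest of the libraries at 14 °C.

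Identical tRNA genes stood in peaks of very different height. Of the 31 sequences whose copies lay under 2 or more peaks, the tallest peak exceeded the lowest by a median of 4.66-fold, with a range of 1.22-fold to 17.9-fold, and in 23 of them the log2 fold changes of 14 over 29 °C had both signs. Some of these peaks also covered other tRNA genes. All 5 copies of Ser-AGA-2 had a peak, with mean heights between 15.3 and 125.7 CPM and log2 fold changes between -0.58 and 0.65. The 12 copies of Asp-GTC-1 had 6 peaks over 8 genes, between 33.7 and 174.4 CPM and between -0.75 and 0.21. Over the 13 copies of Gly-GCC-1 there were 7 peaks, between 17.5 and 138.4 CPM and between -0.48 and 0.67.

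Grouped by amino acid, the median log2 fold change of 14 over 29 °C was below 0 for most tRNAs. The lowest medians were those of aspartate (-0.49, 7 peaks) and alanine (-0.47, 7 peaks). Valine had a median of 0.17 over 7 peaks, of which 4 were above 0, and glycine, with 11 peaks, had -0.04 and 5 above 0.

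The snoRNA peaks held no call, and their log2 fold changes of 14 over 29 °C were 19 above and 15 below 0, with a median of 0.08. This direction rested on single libraries: the median was -0.31 without replicate 2 at 14 °C and -0.02 without replicate 3 at 29 °C. Without replicate 2 at 14 °C 10 snoRNA peaks passed (29.4%), 4 higher and 6 lower at 14 °C, against 49.7% of all peaks. The smallest p was in the peak over CG32479-a (chr3L:891029-891529), which lies in the gene Usp10. It had 48.3, 37.7 and 43.6 CPM at 14 °C, 43.5, 32.3 and 29.6 CPM at 25 °C, and 29.3, 23.3 and 25.2 CPM at 29 °C. The groups at 14 and 29 °C did not overlap, and the log2 fold change was 0.73 (SE 0.20, adjusted p in edgeR = 0.092). The Me18S-A1374 peak (chr3R:19585864-19586364), over a guide for methylation of 18S rRNA within the gene Dys, had 86.6, 40.6 and 87.7 CPM at 14 °C and 36.3, 28.4 and 44.1 CPM at 29 °C (0.99, SE 0.34, adjusted p = 0.12). Here replicate 2 at 14 °C was low, near the libraries at 29 °C, and without it the log2 fold change was 1.28 (adjusted p = 0.011).

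The U3 snoRNA, which guides the cleavage of the rRNA precursor, is made from genes with promoters of their own. Its U3:54Aa peak had 127, 398 and 157 CPM at 14 °C and 160, 243 and 132 CPM at 29 °C (log2 fold change 0.35, SE 0.42), and its U3:9B peak 113, 335 and 152 CPM at 14 °C and 166, 240 and 139 CPM at 29 °C (0.14, SE 0.38). In both, replicate 2 at 14 °C was the highest of the 6 libraries and replicate 1 at 14 °C the lowest. The snoRNA:185 peak behaved alike, with 139, 362 and 186 CPM at 14 °C and 202, 261 and 144 CPM at 29 °C (0.18, SE 0.37). Without replicate 2 at 14 °C the log2 fold changes of these 3 peaks were -0.33, -0.46 and -0.32, with adjusted p in edgeR of 0.32, 0.15 and 0.34. The tall Me18S-C1968 peak had a mean of 184.9 CPM and a log2 fold change of -0.14 (SE 0.34). Log2 fold changes below 0, with overlapping libraries, were those of Me28S-A1322 in the gene of the elongation factor eEF1alpha1 (-0.65, SE 0.32, adjusted p in edgeR = 0.17) and Me18S-G1358c at the start of RpL15 (-0.37, SE 0.19, adjusted p = 0.17). The peaks over pairs of snoRNAs in noncoding hosts had log2 fold changes of -0.34 in Uhg5 (SE 0.22), 0.33 in Uhg2 (SE 0.19) and 0.34 in Uhg4 (SE 0.24), with adjusted p of 0.26, 0.23 and 0.30.

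The comparisons with 25 °C gave no call in the 3 classes. Between 14 and 25 °C, 1 of 17175 peaks (0.00582%) passed, and 8 tRNA peaks, 4 snRNA peaks and 1 snoRNA peak had an unadjusted edgeR p under 0.05 (5.84%, 26.7% and 2.94%), against 5.33% of all peaks. DESeq2 called 1 tRNA peak and none of the snRNA or snoRNA peaks, against 73 of all peaks. For U1:82Eb and U4:38AB the log2 fold changes of 14 over 25 °C were 0.55 and 0.73 and those of 29 over 25 °C were -0.61 and -0.40, so the values at 25 °C lay between the others. These comparisons share the libraries at 25 °C. Between 29 and 25 °C, 0 of 17175 peaks (0%) passed in edgeR, 786 (4.58%) had an unadjusted p under 0.05 and DESeq2 called 20. Of the classes 10 tRNA peaks, 1 snRNA peak and 2 snoRNA peaks had an unadjusted p under 0.05 (7.30%, 6.67% and 5.88%), and DESeq2 called none of them.

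Promoter peaks of the proteins that serve these RNAs, from lists of named genes, were examined in the same fit of 14 over 29 °C. No peak of any list was called. RNA polymerase III and its factors had 16 peaks within 500 bp of a start site, at 14 of 18 genes, with a median log2 fold change of -0.0046 and 3 of the 16 peaks at an unadjusted p under 0.05, against 33.3% of all peaks. The smallest p were those of Polr1D, a subunit shared with RNA polymerase I, with 65.3 ± 14.7 CPM at 14 °C and 95.6 ± 10.4 CPM at 29 °C (SD, n = 3; log2 fold change -0.54, adjusted p in edgeR = 0.13), and of Maf1, a repressor of this polymerase, with 62.9 ± 23.9 CPM at 14 °C and 32.3 ± 13.7 CPM at 29 °C (0.97, adjusted p in edgeR = 0.13). A second, taller peak near a start of Maf1 had -0.15. SNAPc had 4 peaks at its 3 genes, and Pbp49 (-0.36) and Pbp45 (0.27) had the smallest p.

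The Integrator complex, which cuts the 3′ ends of snRNAs, had 16 peaks at 12 of 14 genes with a median of -0.14. In it omd stood at 52.2 ± 8.6 CPM at 14 °C and 96.6 ± 14.8 CPM at 29 °C (SD, n = 3; log2 fold change -0.89, adjusted p in edgeR = 0.075; -0.14 in its other peak) and IntS14 at 75.3 ± 4.4 CPM at 14 °C and 55.8 ± 1.4 CPM at 29 °C (0.43, adjusted p in edgeR = 0.12). Core proteins of snoRNPs had 7 peaks with a median of -0.17, and Nop56 (-0.27) and Nop60B (-0.19) had the smallest p. The aminoacyl-tRNA synthetases, which load tRNAs, had 21 peaks at 19 of 20 genes. Of these peaks 3 were above 0, and the median was -0.23, beside -0.17 for other peaks near a start site. AsnRS (-0.40, adjusted p in edgeR = 0.13) and CysRS (-0.41, adjusted p in edgeR = 0.13) had the smallest p of this list.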

How the data were processed

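Chromatin accessibility was measured by ATAC-Seq in 9 libraries. After trimming, the authors aligned the reads to dm6 with Bowtie2 and discarded mitochondrial reads, duplicates and reads without a unique position. MACS2 peaks of the single libraries were merged in DiffBind, which gave the deposited table of raw counts. A deposited table of normalized values was not used. The files do not say whether peak starts count from 0 or 1, and both readings gave the same 184 peaks. Genes came from an Ensembl annotation of the same assembly, sequences from RefSeq.

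The raw counts were fitted in edgeR 4.0.16 under R 4.3.3, with TMM scaling, robust quasi-likelihood dispersions, all 9 libraries and temperature as the only factor, which left 6 residual degrees of freedom. The SE is the log2 fold change divided by the square root of F. A peak of these classes held 97 to 3876 counts per library on average, and at the median of 383 counts the counting error is 5.11%, below the biological coefficient of variation of 22.7%. Alternatives were other scalings, DESeq2 1.42.0, loess offsets against height or GC content (span 0.3), the replicate number as a block, the 6 libraries compared, a mean count of at least 100, and each library left out. Libraries of the same number at 14 and 29 °C had correlated deviations from their group means (0.63, 0.83 and 0.54). Correlations between libraries of different numbers were not computed, so these values do not show whether the number marks a pairing. The labels do not state one. Members and lists were chosen with earlier results of these data known. Named were all snRNA peaks; of tRNA and snoRNA peaks the 5 tallest, the 3 smallest p in each direction between 14 and 29 °C and the 2 over most genes; all called peaks; and the 2 smallest p of each list. One snoRNA peak that this rule names is not reported here. The procedure was tested on simulated data. The study describes the replicates as biological, and what a shared replicate number marks is not stated.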

Additional observations from a re-analysis of the deposited data

How the results depend on the processing

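Of all peaks 210 passed between 14 and 29 °C, along with 2 snRNA, 0 tRNA and 0 snoRNA peaks. The cause of the changes below was not tested. DESeq2 called 2159 peaks, of them 9 tRNA, 6 snRNA and 1 snoRNA; scaling by the total count 416, of them 4 tRNA and 6 snRNA; offsets against peak height 840 (5 tRNA, 7 snRNA, 4 snoRNA); offsets against GC content 594 (4 tRNA, 4 snRNA, 1 snoRNA); and the fit of only the 6 libraries compared 6 and 0 snRNA peaks. RLE scaling called 172 peaks (1.00%), of them 1 snRNA. With the replicate block 479 peaks passed (1 tRNA, 2 snRNA), and with the block and offsets against height 1096 (7 tRNA, 7 snRNA, 6 snoRNA). Leaving out 1 library gave between 0 and 8542 peaks, 0 to 56 tRNA, 0 to 10 snRNA and 0 to 10 snoRNA peaks. The highest counts were without replicate 2 at 14 °C, where 18 peaks of the classes were higher and 56 lower at 14 °C. Without any other library no peak of the classes passed, and only 0 to 16 of all peaks did. Both called snRNA peaks kept their direction under all alternatives, but U4:38AB was not among the calls with RLE scaling or with offsets against height, with or without the block. Median log2 fold changes with a library left out ranged from -0.37 to -0.11 for tRNA, from -0.10 to 0.54 for snRNA and from -0.31 to 0.10 for snoRNA peaks; the snRNA median turned without replicate 2 at 14 °C, and the snoRNA median without it (-0.31) and without replicate 3 at 29 °C (-0.02).

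Between 14 and 25 °C the 1 called peak was lost with RLE scaling, in the fit of only the 6 libraries and with any library left out (0 each); DESeq2 called 73 peaks, 1 of them over a tRNA gene, offsets against height 81 and, with the replicate block, 77, each with 1 snRNA peak. Between 29 and 25 °C DESeq2 called 20. For these comparisons the correlations between libraries of the same number ranged from -0.74 to 0.67, and the block alone changed no call in the 3 classes. A peak overlap of 50 bp or the whole gene left 135 tRNA, 14 snRNA and 31 snoRNA peaks.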
